A study of Rattus norvegicus with 21 samples.

Results

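The genes described here make new fatty acids in the liver and place double bonds in them. They were chosen by name, and 10 were listed: Srebf1, Thrsp, Acly, Acaca, Fasn, Me1, Elovl6, Scd, Fads1 and Fads2. The array platform gave a probe for 9 of the 10, with 1 probe per gene, and all 9 passed the filter on dim probes. They stand among 12112 named genes and 19339 tested features, which include probes without a gene name. Fasn, the fatty acid synthase, had no probe under its symbol and was not analysed here.

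The livers came from male Wistar rats injected weekly and intraperitoneally with diethylnitrosamine (DEN), a hepatocarcinogen that hepatocytes activate, or with phosphate-buffered saline (PBS). Total RNA of non-tumour liver was measured on 21 Illumina bead arrays, 1 liver per array, with 7 groups of 3 livers. Week 12, as the labels call it, has PBS rats, rats on 50 mg/kg of DEN (DEN 50) and rats on 100 mg/kg (DEN 100), none with a further drug. Week 18 has PBS rats without vehicle or drug and DEN 50 rats given vehicle, erlotinib at 0.5 mg/kg or erlotinib at 2 mg/kg, injected intraperitoneally 5 times per week in weeks 13 to 18. Erlotinib blocks the kinase activity of EGFR, the receptor of epidermal growth factor. The labels call all DEN livers cirrhotic, place killing after a washout of 1 week, and state 2 separate studies for the erlotinib doses. Vehicle rats of both studies form 1 group, and the labels do not say which rat came from which study. Erlotinib dose and study therefore cannot be told apart. Feeding state and hour of killing are not given in the sources used here. Rats are called by the names in their labels, such as PBS_7. Each name was read as a separate rat, and the p-values rest on the spread between such arrays, which may in part be technical.

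New fatty acids are built from citrate that leaves the mitochondria. Acly, the ATP citrate lyase, splits it to acetyl-CoA, Acaca (acetyl-CoA carboxylase 1) makes malonyl-CoA from that, and Fasn joins the units to palmitate with NADPH that malic enzyme, Me1, helps to supply. Elovl6 lengthens palmitate, Scd (stearoyl-CoA desaturase) places the first double bond in saturated chains, and Fads1 and Fads2 are the delta-5 and delta-6 desaturases that make long polyunsaturated fatty acids. Srebf1 encodes SREBP-1, the transcription factor through which insulin raises this programme, and Thrsp (Spot 14) is a lipogenic protein whose gene responds to thyroid hormone and carbohydrate.

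The hepatocyte markers were bright on every array. The mean log2 level of 7 measured hepatocyte markers lay between 12.35 and 13.56 over the 21 arrays, and albumin (Alb) had group means of 14.74 to 15.08. Levels are log2 intensities after background correction and quantile normalization, and each probe has its own scale, so no gene's level is set against another's. The median of all normalized values, 6.38, served as the line below which a group mean counted as near background. Elovl6 and Acaca were near background in all 7 groups, with group means of 6.04 to 6.27 for Elovl6 and 6.03 to 6.35 for Acaca. Changes of these 2 genes could not be measured with these probes, so their missing calls say nothing of the genes. Both stay in the counts and medians of the members below, where values held near background can draw a median towards no change. The other 7 members lay above the line in every group.

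**Figure D1:**
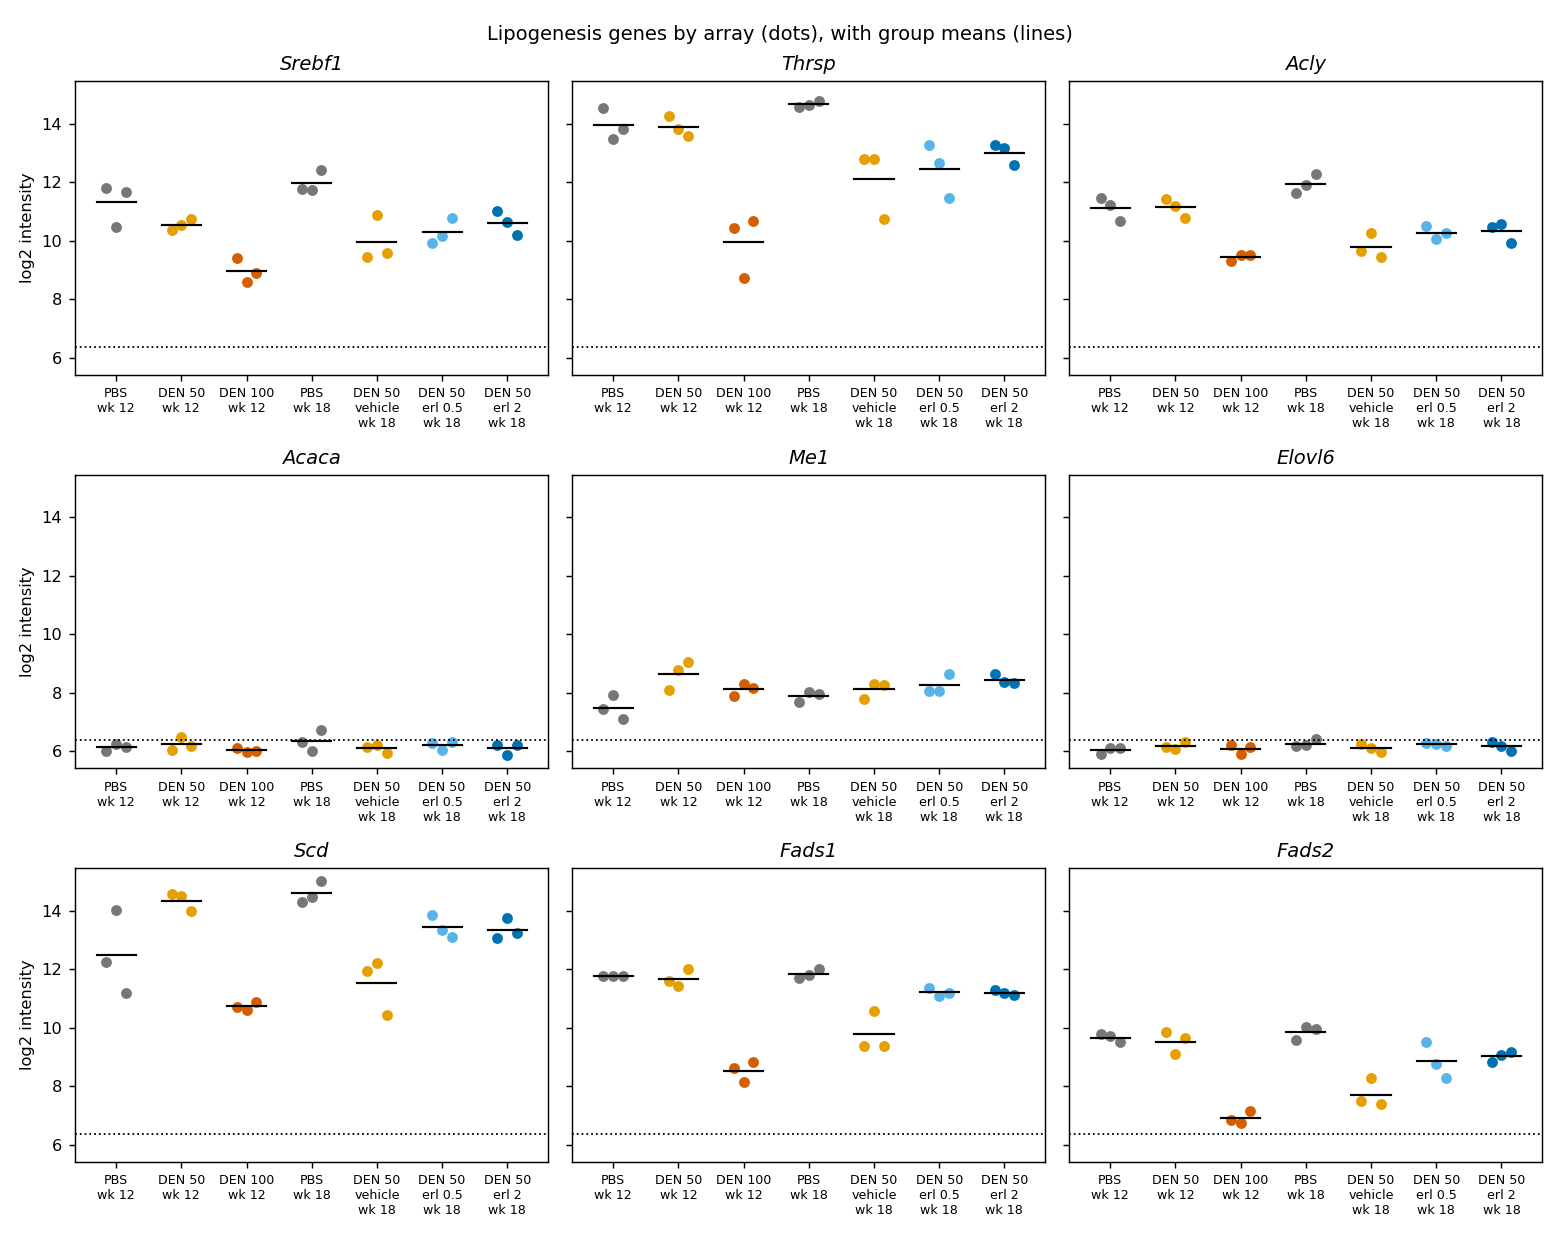
Log2 intensity of the 9 measured genes on each of the 21 arrays (dots), by group (erl, erlotinib dose in mg/kg; wk, week), with group means (solid lines) and the background line at 6.38 (dotted). DEN 100 and DEN 50 vehicle livers lie low for Thrsp, Fads1, Fads2 and Acly, PBS livers at week 12 spread over 2.84 log2 units for Scd, and Acaca and Elovl6 stay near the background line.

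Promoters are printed for Thrsp, Fads1 and Fads2, which had the largest falls at the higher DEN dose, and for Scd, which had the widest spread between PBS livers. Each holds 250 bases before and 50 after a RefSeq transcription start on rat assembly GRCr8, written 5′ to 3′ on the gene's strand, with motif matches in capitals. All 4 genes lie on chromosome 1: Thrsp at chr1:161138915-161139214 on the minus strand, Fads1 at chr1:216252442-216252741 on the plus strand, Fads2 at chr1:216171984-216172283 on the minus strand and Scd at chr1:253231682-253231981 on the minus strand.
Thrsp: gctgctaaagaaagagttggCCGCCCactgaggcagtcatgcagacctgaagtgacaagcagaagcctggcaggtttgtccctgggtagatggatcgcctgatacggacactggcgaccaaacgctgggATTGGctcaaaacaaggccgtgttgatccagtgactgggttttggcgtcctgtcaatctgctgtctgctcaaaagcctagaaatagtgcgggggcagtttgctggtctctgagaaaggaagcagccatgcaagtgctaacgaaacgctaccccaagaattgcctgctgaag
Fads1: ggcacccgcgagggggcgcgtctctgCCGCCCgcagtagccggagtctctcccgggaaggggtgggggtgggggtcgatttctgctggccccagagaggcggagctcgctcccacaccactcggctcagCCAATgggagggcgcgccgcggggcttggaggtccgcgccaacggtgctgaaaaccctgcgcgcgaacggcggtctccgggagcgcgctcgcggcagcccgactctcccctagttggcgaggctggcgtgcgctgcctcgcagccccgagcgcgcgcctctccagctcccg
Fads2: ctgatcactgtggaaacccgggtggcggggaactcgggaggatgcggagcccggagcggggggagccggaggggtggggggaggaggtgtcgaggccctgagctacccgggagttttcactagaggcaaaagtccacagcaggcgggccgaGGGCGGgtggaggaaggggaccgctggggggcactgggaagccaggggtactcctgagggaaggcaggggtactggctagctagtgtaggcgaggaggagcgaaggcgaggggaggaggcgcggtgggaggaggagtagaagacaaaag
Scd: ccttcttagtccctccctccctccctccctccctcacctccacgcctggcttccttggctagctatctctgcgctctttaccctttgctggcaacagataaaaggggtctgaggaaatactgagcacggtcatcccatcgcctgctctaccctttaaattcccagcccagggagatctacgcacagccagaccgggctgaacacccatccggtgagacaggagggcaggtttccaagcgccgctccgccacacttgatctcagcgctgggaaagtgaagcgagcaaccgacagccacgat

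A promoter was found for 7 of the 9 measured genes. The motifs were searched on both strands, and a match is a description of letters, not of binding. CCAAT, the box bound by NF-Y, which acts beside SREBP at many sterol-responsive promoters, was present in 4 of 7 genes and in 37.5% of 33469 rat promoters of the same length. In Thrsp and in Fads1 it began at base -121 from the start, as ATTGG on the printed strand of Thrsp. GGGCGG, the GC box bound by Sp1, was present in 6 of 7 genes and in 33.1% of all promoters. The capitals in Fads2 mark a GC box that begins at -99, and those farthest upstream in Thrsp and Fads1 mark GC boxes that begin at -230 and -224. The core of a sterol regulatory element, written TCACNCCAC, was found in 0 of 7 genes and in 1.12% of all promoters. The E-box CACGTG was likewise found in 0 of 7 and in 6.42%, and a direct repeat of AGGTCA with a spacer of 4 bases in 0 of 7 and in 0.00598%. The printed Scd promoter held none of these motifs, which says only that these letters are not in this window.

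**Figure D2:**
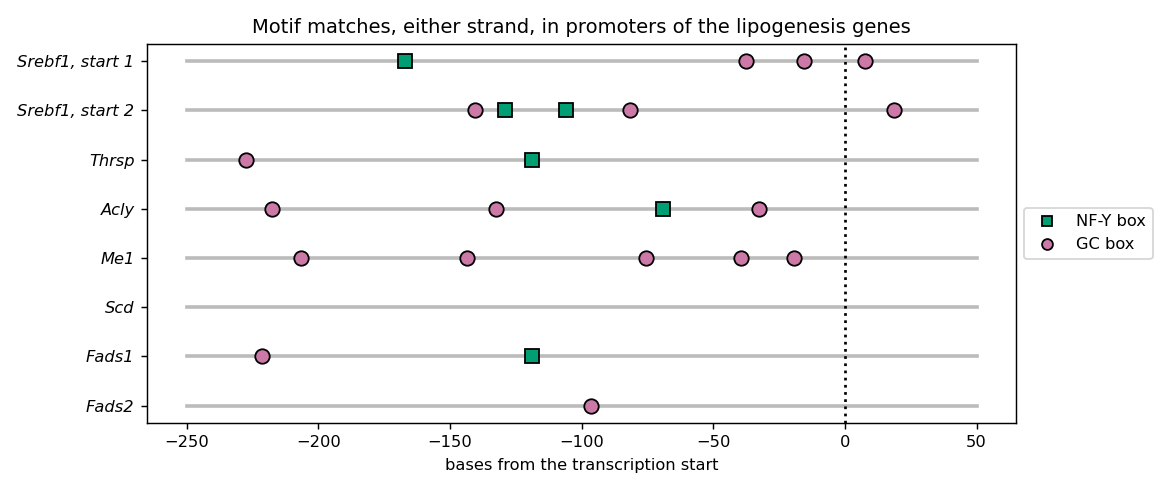
Positions of NF-Y boxes (squares) and GC boxes (circles) relative to the transcription start (dotted line) in the promoters of 7 genes, of which Srebf1 has 2 starts. The x axis counts bases from 250 before to 50 after the start. Thrsp and Fads1 each hold an NF-Y box that begins at -121, and Scd holds no match.

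The first comparison asks what the higher DEN dose did to the programme by week 12. In DEN 100 livers 6 of the 9 measured genes were called lower than in PBS livers and 0 higher, at a limma adjusted p under 0.05 over all features, where 21.3% of all features were called. Thrsp, Fads1, Fads2, Srebf1, Scd and Acly fell, by 3.19-fold to 16.0-fold. The median log2 change of the 9 genes was -1.74, against -0.01 over all features. These are bulk samples, so fewer cells of a type and less RNA per cell cannot be told apart.

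Thrsp had the largest fall. Its log2 levels in rats PBS_7, PBS_108 and PBS_110 were 14.54, 13.49 and 13.83, and in DEN 100 rats DEN_111, DEN_112 and DEN_113 they were 10.45, 8.73 and 10.68. Every DEN 100 liver lay below every PBS liver, with rat DEN_112 lowest, and the fall was -4.00 ± 0.51 (SE, n = 3 and 3, adjusted p = 2.7e-06), or 16.0-fold.

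Fads1 had the tightest PBS levels, 11.78, 11.76 and 11.77, against 8.62, 8.14 and 8.83 with DEN 100. The groups were far apart, and Fads1 fell by 3.24 ± 0.23 (adjusted p = 9.6e-10), or 9.43-fold. Fads2, its partner in the same pathway, went from 9.77, 9.70 and 9.52 to 6.86, 6.74 and 7.14. It fell by 2.75 ± 0.26 (adjusted p = 3.9e-08), and its DEN 100 levels lay close above the background line.

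Srebf1, the regulator, stood at 11.80, 10.48 and 11.68 in PBS livers and at 9.41, 8.58 and 8.91 with DEN 100. Rat PBS_108 was the lowest PBS liver and still above all DEN 100 livers, and the fall was -2.35 ± 0.36 (adjusted p = 2.9e-05). Srebf1 is transcribed from several starts, and which of its transcripts the probe reads was not analysed here. Acly, at the entry of the pathway, had 11.47, 11.21 and 10.69 in PBS livers and 9.32, 9.51 and 9.52 with DEN 100, without overlap. It fell by 1.67 ± 0.23 (adjusted p = 9e-06).

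Scd had 12.25, 14.01 and 11.17 in rats PBS_7, PBS_108 and PBS_110 and 10.70, 10.61 and 10.89 with DEN 100. All DEN 100 livers were lower, yet rat PBS_110 lay close to them, and the fall of 1.74 ± 0.48 (adjusted p = 0.0098) rested on rat PBS_108. Without that rat it was -0.97 (adjusted p = 0.096). A fit of the compared arrays alone gave -1.74 (adjusted p = 0.059) for Scd. Me1 was not called: its PBS levels were 7.43, 7.94 and 7.10 and its DEN 100 levels 7.89, 8.31 and 8.18. The difference of 0.64 ± 0.23 missed the threshold (adjusted p = 0.052). It was called higher in 9 of 31 alternatives, such as without rat PBS_108 (0.86, adjusted p = 0.012). Some of these left out an array of a group outside this comparison, and the difference stayed at 0.64.

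The lower DEN dose gave another picture at the same time point. Here 2 of the 9 genes were called higher than in PBS livers, 0 lower, with 10.9% of all features called. The 2 were Scd and Me1. The median log2 change of the 9 genes was 0.01, against -0.02 over all features. This comparison shares the PBS arrays with the previous one.

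Scd stood at 14.56, 14.49 and 13.98 in DEN 50 rats DEN_11, DEN_14 and DEN_51. Rat PBS_108, at 14.01, overlapped with them, and the rise over PBS was 1.87 ± 0.48 (adjusted p = 0.012), or 3.65-fold. The call rested on the 2 other PBS rats: without rat PBS_110 the difference was 1.22 (adjusted p = 0.095) and without rat PBS_7 it was 1.76 (adjusted p = 0.053). Scaling on bright probes gave 1.58 (adjusted p = 0.07) and a trended, robust spread gave 1.87 (adjusted p = 0.053).

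Me1 had 8.10, 8.79 and 9.05 with DEN 50, all above the PBS livers. It rose by 1.16 ± 0.23 (adjusted p = 0.0015), or 2.23-fold.

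Fads1, Fads2, Acly and Thrsp were not called with DEN 50, and their intervals enclosed 0. Fads1 had 11.60, 11.43 and 12.00 and a difference of -0.10, with a 95% interval of -0.58 to 0.39. Fads2 had 9.84, 9.09 and 9.64 and an interval of -0.68 to 0.39, and Acly had 11.44, 11.20 and 10.77 and an interval of -0.47 to 0.49. Thrsp, at 14.27, 13.83 and 13.59, had a wider interval, -1.11 to 0.99. These intervals exclude, for Fads1, Fads2, Acly and Thrsp, falls as large as those with DEN 100.

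Srebf1 was intermediate. It had 10.36, 10.53 and 10.75 with DEN 50, near rat PBS_108 and below the 2 other PBS rats, and the difference of -0.77 ± 0.36 was not called (adjusted p = 0.21). Without rat PBS_108 it was -1.19 (adjusted p = 0.039). Rat PBS_108 was thus highest of the PBS livers for Scd and lowest for Srebf1.

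The doses were also compared with each other. DEN 100 livers were lower than DEN 50 livers in 6 of 9 genes and higher in 0, with 9.38% of all features called. Thrsp differed by -3.94 ± 0.51 (adjusted p = 1.8e-05), Scd by -3.61 ± 0.48 (adjusted p = 2.5e-05) and Fads1 by -3.14 ± 0.23 (adjusted p = 1.2e-08). Fads2 differed by -2.61 ± 0.26, Acly by -1.69 ± 0.23 and Srebf1 by -1.58 ± 0.36, with adjusted p of 5.8e-07, 4.2e-05 and 0.0054. Me1 differed by -0.52 ± 0.23 (adjusted p = 0.2).

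**Figure D3:**
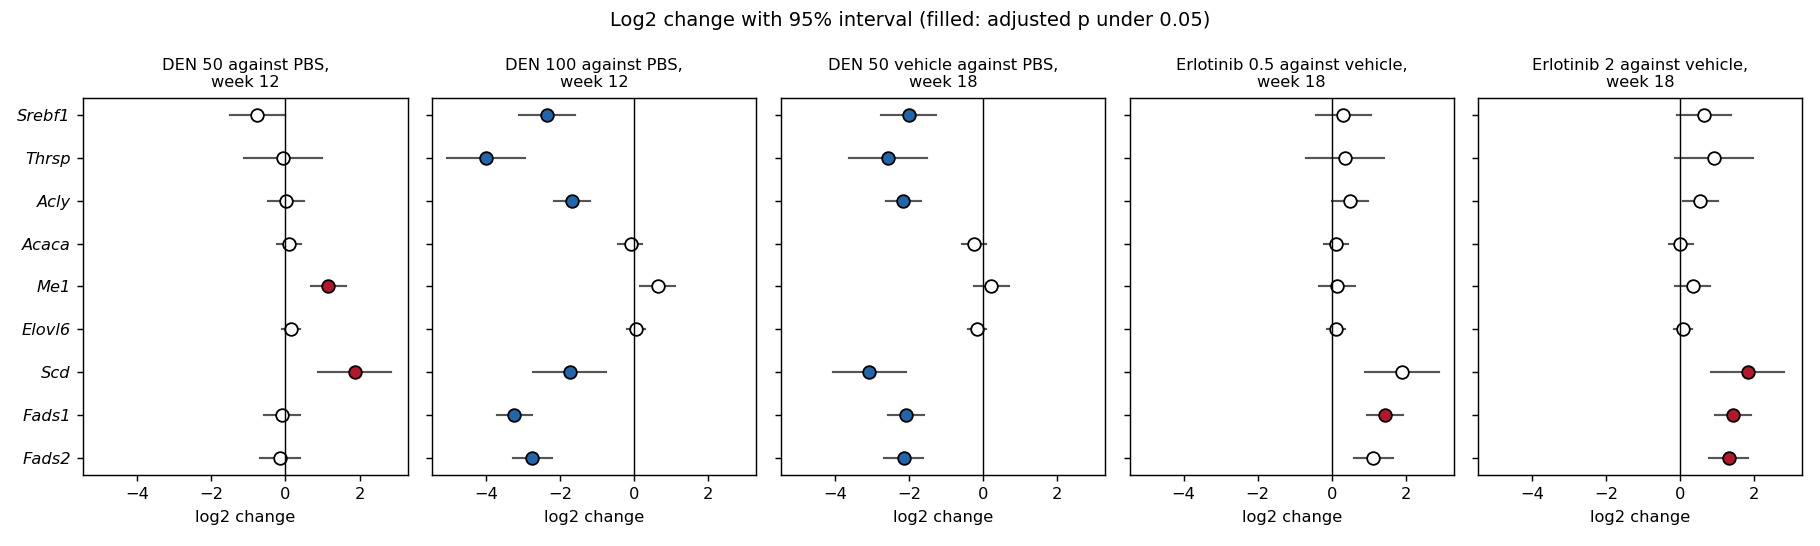
Log2 change (x axis) of the 9 measured genes in 5 comparisons, as points with 95% intervals from the limma fit, filled red where called higher and blue where called lower. The 6 filled points with DEN 100 and in vehicle livers lie at -1.67 or below, and with erlotinib 2 the filled points are the 3 desaturases Scd, Fads1 and Fads2.

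At week 18 the DEN 50 livers given vehicle were compared with PBS livers. The same 6 genes that fell with DEN 100 were lower here, 0 were higher, and 18.2% of all features were called. The falls ran from 4.01-fold for Srebf1 to 8.40-fold for Scd. The median log2 change of the 9 genes was -2.07, against -0.03 over all features. All 6 calls held in each of the 31 alternatives run for this comparison. Many of these, such as leaving out an array of another group, could not change the differences. The PBS rats had no vehicle injections, which cannot be told apart from DEN here.

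Scd had 14.31, 14.46 and 15 in rats PBS_8, PBS_9 and PBS_18, close to the highest value on any array, 15.48. In vehicle rats DEN_24, DEN_59 and DEN_69 it had 11.92, 12.21 and 10.44. The groups did not overlap, rat DEN_69 was lowest, and the fall was -3.07 ± 0.48 (adjusted p = 6.2e-05).

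Thrsp went from 14.58, 14.63 and 14.79 to 12.78, 12.79 and 10.75, with rat DEN_69 again lowest. It fell by 2.56 ± 0.51 (adjusted p = 0.00078). Acly went from 11.62, 11.91 and 12.28 to 9.65, 10.26 and 9.46 and fell by 2.15 ± 0.23 (adjusted p = 7.2e-07). Neither gene had overlapping groups.

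Fads1 had 11.71, 11.81 and 12.02 in PBS livers and 9.37, 10.58 and 9.37 in vehicle livers, and rat DEN_59 stood above the 2 other vehicle rats. It fell by 2.07 ± 0.23 (adjusted p = 1.2e-06). Fads2 showed the same order, with 9.57, 10.03 and 9.97 in PBS livers and 7.48, 8.27 and 7.39 in vehicle livers, and fell by 2.14 ± 0.26 (adjusted p = 2.5e-06). Srebf1 also was highest in vehicle rat DEN_59, with 9.46, 10.89 and 9.57 against PBS levels of 11.78, 11.73 and 12.42. It fell by 2.00 ± 0.36 (adjusted p = 0.00028), while Me1, at 7.79, 8.30 and 8.26 against 7.69, 8.01 and 7.97, differed by 0.23 ± 0.23 (adjusted p = 0.59).

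The effect of DEN 50 therefore had to be compared between the time points, and the difference of the 2 effects was tested as an interaction. It was called in 4 of 9 genes, all towards lower levels at week 18, where 0.233% of all features were called. Scd had the largest value: the effect of DEN 50 at week 18 minus that at week 12 was -4.94 ± 0.67 (adjusted p = 0.0035). Acly had -2.16 ± 0.33 (adjusted p = 0.007), Fads1 -1.98 ± 0.33 (adjusted p = 0.011) and Fads2 -2.00 ± 0.36 (adjusted p = 0.024). The Fads2 call was lost in 7 of 31 alternatives, among them leaving out rats PBS_110, PBS_9 or PBS_18, DEN 50 rat DEN_11 or vehicle rat DEN_69, with adjusted p of 0.055 to 0.08. Scaling to array medians took Fads1 to -2.17 (adjusted p = 0.35) and Fads2 to -2.17 (adjusted p = 0.32). Thrsp had -2.50 ± 0.72 (adjusted p = 0.13) and Srebf1 -1.23 ± 0.51 (adjusted p = 0.31), which were not called.

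Both sides of that interaction were looked at. Within DEN 50 livers, those given vehicle at week 18 were lower than those at week 12 in 4 of 9 genes and higher in 0, with 0.543% of all features called. Scd differed by -2.82 ± 0.48 (adjusted p = 0.008), Fads1 by -1.90 ± 0.23 (adjusted p = 0.00059), Fads2 by -1.81 ± 0.26 (adjusted p = 0.0031) and Acly by -1.34 ± 0.23 (adjusted p = 0.0086). Time, more DEN injections and vehicle injections differ together between these groups and cannot be told apart. Fitted on these 6 arrays alone, the same differences had adjusted p of 0.051 to 0.076 and 0 of the 9 genes were called. Leaving out DEN 50 rat DEN_11 took Scd to -2.71 (adjusted p = 0.061) and Acly to -1.19 (adjusted p = 0.092), and leaving out vehicle rat DEN_69 took them to -2.28 (adjusted p = 0.064) and -1.18 (adjusted p = 0.075).

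PBS livers went the other way in value. PBS at week 18 against week 12 had 0 of 9 genes called by limma, with 0% of all features called, and 2 of the 9 genes and 1568 features had an unadjusted p under 0.05. Scd was higher at week 18 on every array, by 2.12 ± 0.48 (adjusted p = 0.21), and Acly by 0.81 ± 0.23 (adjusted p = 0.33). Without rat PBS_108 the Scd difference was 2.89 and was called (adjusted p = 0.0019). Fads1 differed between the PBS groups by 0.08, with an interval of -0.41 to 0.56.

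**Figure D4:**
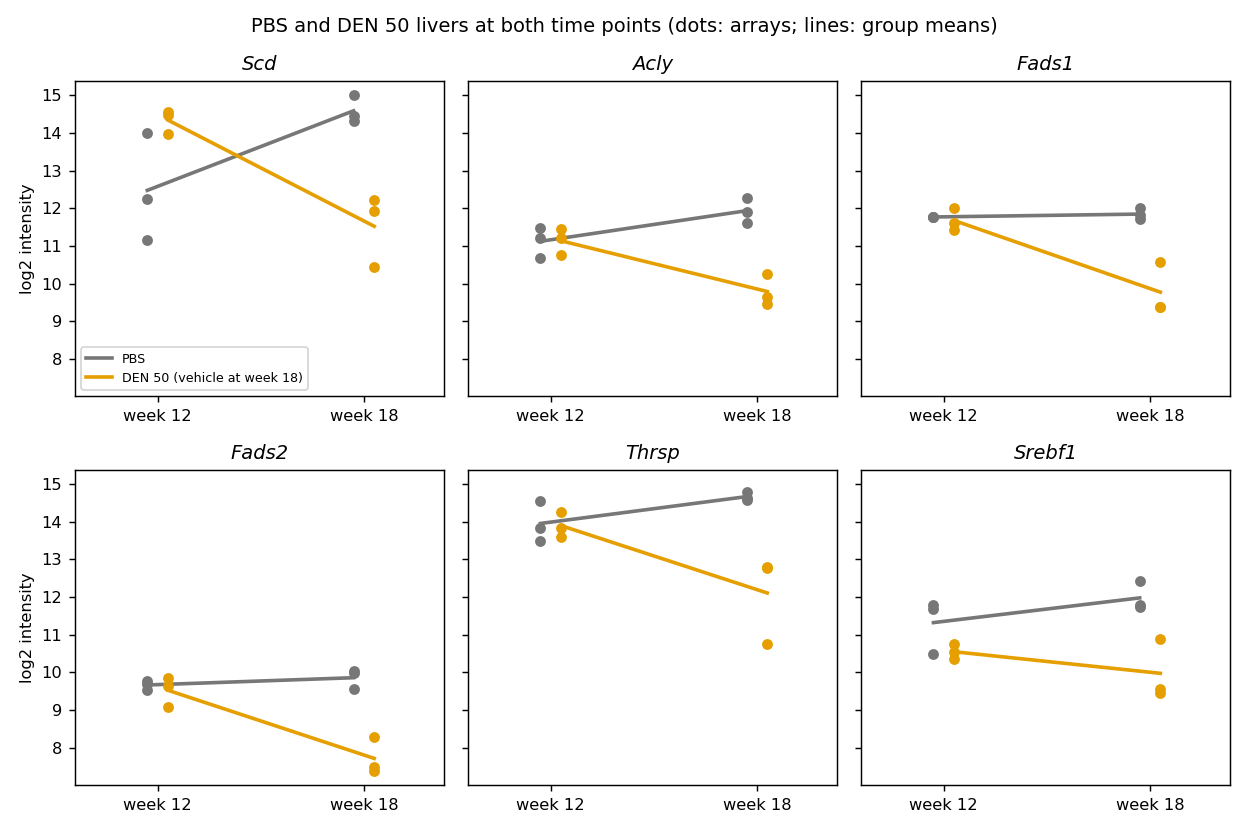
Log2 intensity of 6 genes in PBS livers (grey) and in DEN 50 livers (orange, given vehicle at week 18) at weeks 12 and 18, with dots for single arrays and lines between group means. The Scd lines cross, PBS from 12.48 to 14.59 and DEN 50 from 14.35 to 11.52, whereas for Fads1 the PBS means are 11.77 and 11.85 and the DEN 50 means 11.67 and 9.77.

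Erlotinib was then compared with vehicle in DEN 50 livers at week 18, which asks whether inhibition of the receptor moved these genes in diseased liver. Both comparisons share the vehicle arrays with each other and with the comparison of vehicle and PBS. A low vehicle array therefore enters the fall with DEN and the rise with erlotinib alike. The vehicle rats came from both studies and each erlotinib dose from its own study. A difference between the studies can therefore enter these comparisons and could not be separated from erlotinib. With erlotinib 2 mg/kg, 3 of 9 genes were called higher and 0 lower, where 4.03% of all features were called. The 3 were the desaturases Fads1, Fads2 and Scd. With erlotinib 0.5 mg/kg, 1 of 9 genes was called higher and 0 lower, where 0.14% of all features were called.

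Fads1 had 11.28, 11.18 and 11.11 in erlotinib 2 rats DEN_27, DEN_29 and DEN_31 and 11.37, 11.08 and 11.18 in erlotinib 0.5 rats DEN_73, DEN_74 and DEN_79. Every treated liver lay above every vehicle liver. The rise was 1.42 ± 0.23 (adjusted p = 0.0011) with the higher dose and 1.44 ± 0.23 (adjusted p = 0.015) with the lower, or 2.67-fold and 2.70-fold. The call at the higher dose was lost in 1 of 31 alternatives, scaling to array medians (1.4, adjusted p = 0.087). At the lower dose the Fads1 call was lost without vehicle rat DEN_69 (1.23, adjusted p = 0.061) and without erlotinib rat DEN_73 (1.36, adjusted p = 0.15).

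Fads2 had 8.83, 9.07 and 9.17 with erlotinib 2 and rose by 1.31 ± 0.26 (adjusted p = 0.0045), without overlap with the vehicle livers. With erlotinib 0.5 it had 9.52, 8.75 and 8.27, which spread more and met vehicle rat DEN_59 at 8.27. The difference was 1.13 ± 0.26 and not called (adjusted p = 0.078). Scaling to array medians also took the Fads2 call at the higher dose away (1.21, adjusted p = 0.12).

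Scd had 13.05, 13.73 and 13.25 with erlotinib 2 and 13.86, 13.32 and 13.11 with erlotinib 0.5, all above the vehicle livers. The differences were alike in size, 1.82 ± 0.48 (adjusted p = 0.032) and 1.91 ± 0.48 (adjusted p = 0.12), and 1 of them passed. The call at the higher dose was lost in 9 of 31 alternatives. Without vehicle rat DEN_69 the Scd difference was 1.28 (adjusted p = 0.19), and leaving out erlotinib rat DEN_27, DEN_29 or DEN_31 gave 1.97, 1.63 and 1.87 with adjusted p of 0.054, 0.16 and 0.08. The authors' normalized intensities gave 1.74 (adjusted p = 0.07).

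Acly, Thrsp, Srebf1 and Me1 were not called with either dose. Acly had 10.48, 10.57 and 9.93 with erlotinib 2 and 10.51, 10.05 and 10.28 with erlotinib 0.5, both ranges meeting vehicle rat DEN_59 at 10.26. The Acly differences were 0.54 ± 0.23 (adjusted p = 0.25) and 0.49 ± 0.23 (adjusted p = 0.43). Thrsp had 13.28, 13.17 and 12.59 and a difference of 0.91 ± 0.51 (adjusted p = 0.44) with erlotinib 2, and 13.28, 12.67 and 11.45 and a difference of 0.36 ± 0.51 (adjusted p = 0.88) with erlotinib 0.5. Srebf1, at 11.03, 10.64 and 10.18 and at 9.91, 10.16 and 10.78, overlapped with vehicle at both doses, with differences of 0.64 ± 0.36 (adjusted p = 0.44) and 0.31 ± 0.36 (adjusted p = 0.84). Me1 differed by 0.33 ± 0.23 and 0.14 ± 0.23, with adjusted p of 0.58 and 0.9. Whether the desaturases moved more than Acly, Thrsp or Srebf1 was not tested.

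The 2 erlotinib groups did not separate. Between them limma called 0 of 9 genes, where 0.0776% of all features were called, and 0 of the 9 had an unadjusted p under 0.05. The Fads1 difference, erlotinib 2 minus erlotinib 0.5, was -0.02 with a 95% interval of -0.50 to 0.47. For Fads2 the interval was -0.36 to 0.71 and for Scd -1.08 to 0.91, so differences of up to about those sizes are not excluded.

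Treated livers were also set against PBS livers at week 18. With erlotinib 0.5, 4 of 9 genes were lower and 0 higher, where 15.5% of all features were called. Thrsp differed by -2.20 ± 0.51 (adjusted p = 0.0038), Srebf1 by -1.69 ± 0.36 (adjusted p = 0.0018), Acly by -1.66 ± 0.23 (adjusted p = 2.7e-05) and Fads2 by -1.01 ± 0.26 (adjusted p = 0.008). With erlotinib 2, 2 of 9 genes were lower and 0 higher, where 5.67% of all features were called. These were Acly, by -1.61 ± 0.23 (adjusted p = 0.00014), and Srebf1, by -1.36 ± 0.36 (adjusted p = 0.025). The Srebf1 call was lost in 6 of 31 alternatives, among them leaving out rat PBS_18 (-1.14, adjusted p = 0.13), rat DEN_29 (-1.37, adjusted p = 0.066) or rat DEN_31 (-1.14, adjusted p = 0.14). Fads1 was below PBS on every treated array at both doses, by -0.64 and -0.66, and was not called (adjusted p = 0.072 and 0.11). Scd was likewise lower on every treated array, with differences of -1.16 and -1.25 (adjusted p = 0.11 and 0.15). A fit of the compared arrays alone called 6 of 9 genes for erlotinib 0.5 against PBS, with Scd (adjusted p = 0.0011) and Fads1 (adjusted p = 0.0035) added. It called 7 of 9 for erlotinib 2 against PBS, Scd (adjusted p = 0.00082), Fads1 (adjusted p = 0.0043), Fads2 (adjusted p = 0.0023), Thrsp (adjusted p = 2.1e-05) and a higher Me1 (0.55, adjusted p = 0.021) among them.

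The spread between livers of a group was itself uneven. In PBS livers at week 12 the median SD of the 9 genes was 0.40, against 0.154 over all features, and in vehicle livers it was 0.48 against 0.151. Features were not matched to these genes by signal level, and the part of level in this contrast was not tested. Scd had an SD of 1.43 in PBS livers at week 12, above that of 99.9% of features, with a 7.17-fold step from rat PBS_110 to rat PBS_108. In the same livers Fads1 had an SD of 0.01, below all but 0.2% of features, so the spread did not extend to every desaturase. Srebf1 had 0.73 and Thrsp 0.53. Thrsp was also uneven with DEN 100 (SD 1.07), vehicle (1.17) and erlotinib 0.5 (0.93).

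Single genes of fasting and of the clock, chosen here after their values were seen, differed between the PBS livers of week 12. In rats PBS_7, PBS_108 and PBS_110 in turn, Igfbp1, a liver gene that insulin represses, had 7.97, 12.22 and 10.53. G6pc1, the glucose-6-phosphatase of gluconeogenesis, had 9.74, 12.59 and 12.90, and the clock gene Per2 had 11.15, 9.68 and 10.69. Rat PBS_7 was lowest for Igfbp1 and G6pc1 and highest for Per2. Pklr, the liver pyruvate kinase that carbohydrate induces, was highest in rat PBS_7, with 10.52, 9.49 and 9.35. Rat PBS_108, the highest for Scd, was also highest for Igfbp1 and lowest for Per2. Over the 10 measured fasting genes the mean level in rats PBS_7, PBS_108 and PBS_110 was 9.03, 10.05 and 10.1. Over the 12 measured clock genes it was 7.67, 7.54 and 7.72, so Per2 does not stand for the clock list. The part of these genes in the spread was not tested.

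For the order of levels over groups, Scd and Fads1 serve as the examples. Scd group means ran from PBS week 18 at 14.59, DEN 50 week 12 at 14.35, erlotinib 0.5 at 13.43, erlotinib 2 at 13.34, PBS week 12 at 12.48 and vehicle at 11.52 down to DEN 100 at 10.74. The arrays of neighbours in that order overlapped, except for DEN 50 week 12 and erlotinib 0.5. For Fads1 the means of PBS week 18, PBS week 12 and DEN 50 week 12 were 11.85, 11.77 and 11.67 and their arrays overlapped. Below them, the erlotinib groups stood at 11.21 and 11.19, vehicle at 9.77 and DEN 100 at 8.53, and the last 2 did not overlap with each other or with any group above.

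Over the 21 arrays 6 of the 9 genes had similar profiles. As a description over arrays that share 7 groups, the Pearson correlation of each gene with the mean of the other members was 0.94 for Fads1 and Fads2, 0.90 for Acly and Thrsp, 0.84 for Scd and 0.80 for Srebf1. Me1 had -0.08, and the near-background Acaca and Elovl6 had 0.49 and 0.41. Within groups, after the group means were taken away, Fads1 and Fads2 kept a correlation of 0.65. Scd and Srebf1 had 0.58 over all arrays and -0.23 within groups.

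The genes outside the members whose profile was most like their mean were, by Pearson correlation over the 21 arrays, Scly (0.953), Acss2 (0.930), Mbl2 (0.928), Gamt (0.924), Fdft1 (0.923), Lipc (0.920), Fdps (0.914), Mettl7b (0.912), Khk (0.912) and Mgat4b (0.911). Acss2 makes acetyl-CoA from acetate, Fdft1 and Fdps are enzymes of cholesterol synthesis, Lipc is hepatic lipase, and Khk phosphorylates fructose. Lipc had group means of 13.10 in PBS and 10.13 in DEN 100 livers at week 12. At week 18 its means were 13.15 in PBS, 11.41 in vehicle and 12.46 in erlotinib 2 livers.

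Among 13 measured regulators of lipogenic transcription, 6 fell with DEN 100, 6 fell in vehicle livers and 5 fell with DEN 50, and 0 rose in any of the 3 comparisons with PBS. The shares of all features called, to be read beside the counts of this and the next lists, were 21.3% with DEN 100, 18.2% in vehicle livers, 10.9% with DEN 50 and 4.03% with erlotinib 2. Their median log2 changes were -0.55, -0.41 and -0.26. Thrb, the thyroid hormone receptor beta through which liver Thrsp responds, had 9.07, 8.70 and 9.53 in PBS livers and 6.73, 6.73 and 6.62 with DEN 100. Thrb changed by -2.40 (adjusted p = 2.1e-08) there and by -1.64 (adjusted p = 7.9e-06) in vehicle livers. Nr1h4, the bile acid receptor FXR, changed by -1.98 (adjusted p = 7e-09) and by -1.53 (adjusted p = 7e-07). With DEN 50 at week 12, Insig2, which holds SREBP in the endoplasmic reticulum, changed by -1.28 (adjusted p = 0.036), Nr1h4 by -1.11 (adjusted p = 8.3e-05) and Thrb by -0.91 (adjusted p = 0.0068). With erlotinib 2, 2 of the 13 rose and 0 fell: Thrb by 0.82 (adjusted p = 0.032) and Nr1h4 by 0.79 (adjusted p = 0.0071). With erlotinib 0.5 limma called 0 of 13.

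The supply of carbon and NADPH moved with the members at several points. Of 6 measured genes, 3 fell and 1 rose both with DEN 100 and in vehicle livers. Pklr, which feeds pyruvate to the mitochondria, had 10.46, 10.88 and 11.17 in PBS livers and 7.92, 7.57 and 7.72 in vehicle livers at week 18. Pklr changed by -3.10 (adjusted p = 7.6e-07) there, by -2.60 (adjusted p = 3.9e-06) with DEN 100, and by 1.30 (adjusted p = 0.031) with erlotinib 2. Acss2 changed by -1.51 (adjusted p = 3.2e-08) in vehicle livers, by -1.65 (adjusted p = 3.4e-09) with DEN 100, and by 0.68 (adjusted p = 0.0038) with erlotinib 2. Both were called in the interaction of DEN 50 and time, at -2.85 (adjusted p = 0.011) for Pklr and -1.18 (adjusted p = 0.007) for Acss2. Taldo1, the transaldolase of the pentose phosphate pathway, rose by 1.11 (adjusted p = 0.00093) with DEN 50, by 1.62 (adjusted p = 3.1e-06) with DEN 100 and by 1.28 (adjusted p = 9.7e-05) in vehicle livers.

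Of 13 other lipogenic enzymes, elongases and desaturases, 7 fell and 1 rose with DEN 100, 8 fell and 1 rose in vehicle livers, and 3 rose and 0 fell with erlotinib 2. The gene that rose with DEN was Scd2, a second stearoyl-CoA desaturase, known in mouse from tissues other than adult liver. Scd2 had 7.40, 6.72 and 7.38 in PBS livers at week 12, 8.10, 9.41 and 9.41 with DEN 50 and 8.97, 8.65 and 9.00 with DEN 100. It rose by 1.81 (adjusted p = 0.013) with DEN 50, by 1.71 (adjusted p = 0.0098) with DEN 100 and by 1.92 (adjusted p = 0.005) in vehicle livers. Scd and Scd2 are close relatives, and cross-hybridisation between their probes was not tested. Acsl1, which activates long fatty acids, changed by -2.46 (adjusted p = 2.4e-07) with DEN 100, by -1.70 (adjusted p = 5.8e-05) in vehicle livers, and by 1.03 (adjusted p = 0.027) with erlotinib 2. Mid1ip1, the partner of Thrsp, fell by 1.72 (adjusted p = 1.1e-05) with DEN 100.

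Neighbouring lipid pathways were counted in the same fit. Of 12 measured genes of cholesterol synthesis, 10 fell and 0 rose with DEN 100, 10 fell and 0 rose in vehicle livers, 2 fell with DEN 50, and 5 rose and 0 fell with erlotinib 2. Fdps, the farnesyl diphosphate synthase, fell by 2.20 (adjusted p = 8.4e-08) with DEN 100 and rose by 1.12 (adjusted p = 0.004) with erlotinib 2. Of 15 genes of triglyceride synthesis and lipid droplets, 3 fell and 4 rose with DEN 100 and 5 fell and 0 rose in vehicle livers, with Dgat2, which makes triglyceride, at -1.67 (adjusted p = 4e-07) and -1.55 (adjusted p = 2.4e-06). Of 15 genes of fatty acid oxidation and ketone bodies, 6 fell and 1 rose with DEN 100, 7 fell and 0 rose in vehicle livers, and 4 rose with erlotinib 2. Hadh, an enzyme of beta-oxidation, changed by -2.08 (adjusted p = 4e-07) with DEN 100, by -1.64 (adjusted p = 1.7e-05) in vehicle livers, and by 1.01 (adjusted p = 0.012) with erlotinib 2. Falls were therefore counted in synthesis and in oxidation alike.

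**Figure D5:**
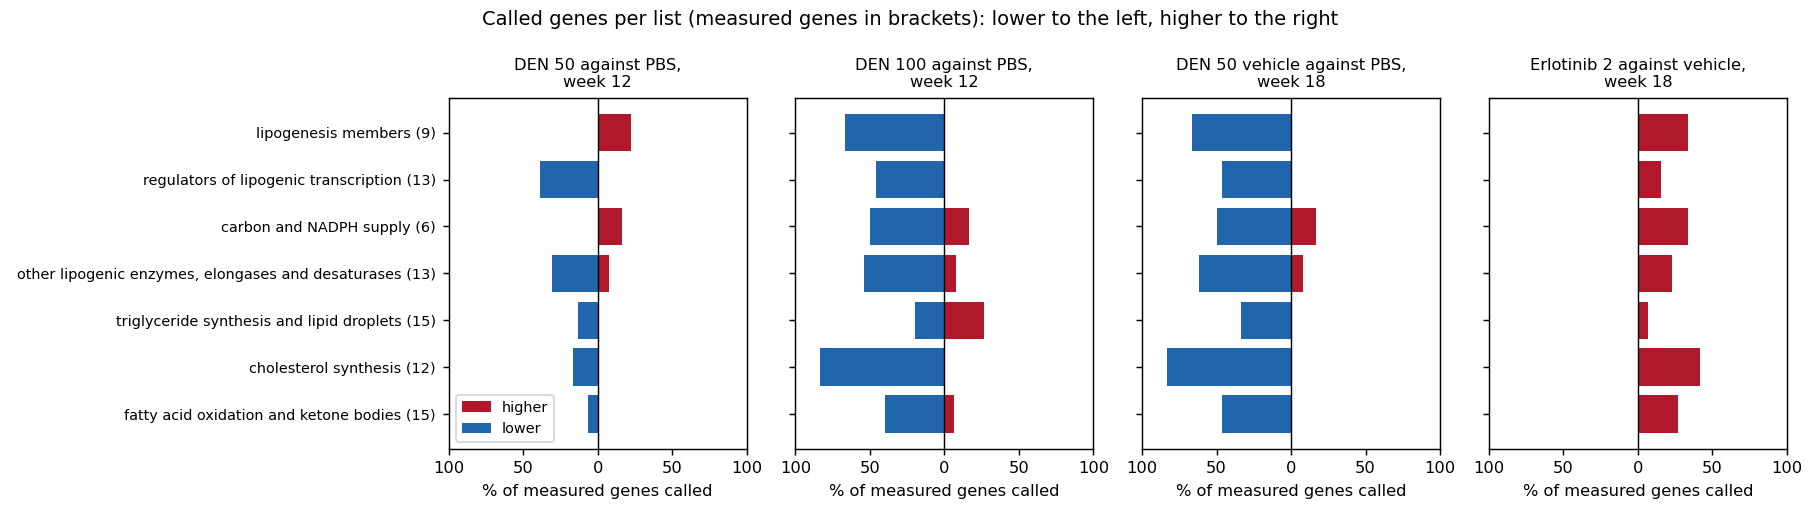
Share of measured genes called lower (blue, to the left) or higher (red, to the right) for the members and 6 lists of related genes in 4 comparisons, in percent of the measured genes given in brackets. With DEN 100 and in vehicle livers most bars point left, 10 of 12 genes for cholesterol synthesis in both, and with erlotinib 2 every bar points right.

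Fasting and clock genes were counted as well. Of 10 fasting genes, 0 were called with DEN 50, 1 fell with DEN 100 and 2 fell in vehicle livers, G6pc1 at -3.29 (adjusted p = 0.0066) and Pck1 at -1.34 (adjusted p = 0.02). With erlotinib 0.5 and with erlotinib 2 limma called 0 of the 10. Of 12 clock genes, 3 fell with DEN 100 and 2 in vehicle livers. The shares of all features called were 21.3% with DEN 100 and 18.2% in vehicle livers, near or above those of both lists. With DEN 50 and with erlotinib 0.5, limma called 0 of the 12 clock genes, where 10.9% and 0.14% of all features were called. With erlotinib 2 it called 2 of the 12, where 4.03% of all features were called. Per2 fell by 1.86 (adjusted p = 0.0029) and Bmal1 rose by 0.65 (adjusted p = 0.045) there, beside the rises of Scd, Fads1 and Fads2. The part of Per2 and Bmal1 in those rises was not tested.

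Markers of other cells also differed between groups. With DEN 50 at week 12, 4 of 5 cholangiocyte and 3 of 4 stellate cell markers rose, where 10.9% of all features were called. Of the 9 members 2 rose and 0 fell there. In PBS livers the mean level of 5 cholangiocyte markers ranged from 6.85 to 7.50 at week 12 and from 7.03 to 7.27 at week 18. It ranged from 8.47 to 9.37 with DEN 50, from 9.52 to 10.76 with DEN 100, from 8.94 to 10 in vehicle livers, from 8.89 to 9.46 with erlotinib 0.5 and from 8.08 to 8.65 with erlotinib 2. The mean of 4 stellate cell markers ranged at week 12 from 7.23 to 7.79 in PBS livers, from 8.78 to 8.91 with DEN 50 and from 8.54 to 8.95 with DEN 100. At week 18 it ranged from 7.17 to 7.29 in PBS livers and from 8.93 to 9.14 in vehicle livers. With erlotinib 0.5 it ranged from 8.84 to 9.12 and with erlotinib 2 from 7.97 to 8.11. Of 5 macrophage markers 4 rose and 0 fell in vehicle livers. With DEN 100, 4 rose and 1 fell, and with DEN 50, 2 rose and 1 fell. Their mean at week 12 overlapped between PBS livers, at 8.7 to 9.46, and DEN 100 livers, at 9.24 to 10.14. With DEN 50 it ranged from 9.5 to 9.74. At week 18 it ranged from 8.62 to 8.95 in PBS livers and from 9.49 to 10.09 in vehicle livers. With erlotinib 0.5 it ranged from 9.84 to 10.25 and with erlotinib 2 from 9.81 to 10.20. Both measured endothelium markers rose with DEN 100 and in vehicle livers. Of 7 hepatocyte markers 2 fell and 0 rose with DEN 50, and 3 fell and 1 rose with DEN 100. In vehicle livers 3 fell and 0 rose. The hepatocyte mean ranged at week 12 from 13.38 to 13.56 in PBS livers, from 12.98 to 13.16 with DEN 50 and from 12.35 to 13.15 with DEN 100. At week 18 it ranged from 13.47 to 13.56 in PBS livers and from 12.82 to 13.16 in vehicle livers. With erlotinib 0.5 it ranged from 12.87 to 13.09 and with erlotinib 2 from 13.09 to 13.19. The part of these shifts in the changes of the lipogenic genes was not tested.

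Adipocytes express the same enzymes, so their markers were read too. Of 5 measured markers 1 was called higher with DEN 50, 2 with DEN 100 and 3 in vehicle livers, and 0 lower. Lep had group means of 6.01 to 6.35, below the background line in all 7 groups. Adipoq had 6.24 to 6.60, above the line in DEN 50 livers at week 12 and PBS livers at week 18, and was called in none of these 3 comparisons. Retn had 6.04 to 6.39, and rose by 0.35 (adjusted p = 0.036) in vehicle livers, to a mean just above that line. Cfd, adipsin, rose 1.99-fold (adjusted p = 0.0094) with DEN 100 and by 1.27 on the log2 scale (adjusted p = 0.0016) in vehicle livers. Fabp4, which macrophages and endothelium also express, rose by 3.36 (adjusted p = 7e-07) with DEN 50, by 4.06 (adjusted p = 7e-09) with DEN 100 and by 4.54 (adjusted p = 4.1e-09) in vehicle livers. The mean of the 5 markers ranged from 7.08 to 7.19 in PBS livers at week 12 and from 8.12 to 8.22 with DEN 100. Their part in the changes of the lipogenic genes was not tested.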

How the data were processed

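Intensity values from 21 bead arrays were used. The raw intensities deposited by the authors are on a linear scale with array medians of 105 to 186.9, without detection p-values. The authors' normalized intensity table has medians of 135.5 to 136.8, by a method that no source used here names. Per the labels' protocols, RNA was extracted with TRIzol and rats were killed at 9, 13 and 19 weeks. The labelled time points, weeks 12 and 18, are used here.

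Raw intensities were background corrected in limma 3.58.1 under R 4.3.3 (normexp, offset 50), log2 transformed and then quantile normalized. A probe stayed if it exceeded its array's 40th percentile on 3 or more arrays, and a gene with several probes was read from the brightest. limma fitted the means of all 7 groups of 3 arrays together (14 residual degrees of freedom). P-values of its moderated test were adjusted after Benjamini and Hochberg over 19339 features, and a gene was called at an adjusted p under 0.05. Of 22523 probes 13793 had a symbol from the platform annotation, and 13752 of these matched a RefSeq gene table (GRCr8) by Entrez identifier. Signal over background and the number of arrays limit the precision.

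Members and lists (16 lists, 179 genes, 136 measured) were chosen with earlier results of these data known. All members with a probe are named, up to 3 called genes per list and comparison with the largest change, and the 10 genes of most similar profile. The fasting and clock genes of single PBS livers were picked once their values were known. The alternatives tried were the authors' normalized table, no background correction, scaling to array medians or to bright probes (above the 60th percentile), no filter, a stricter filter (60th percentile, 6 arrays), array weights, limma's trended and robust spread, the compared arrays alone, the mean of a gene's probes, and leaving out each array. Leaving out an array of a group that a comparison did not use left its difference unchanged and altered only the spread shared by all groups. Each member had a single probe, so the mean of a gene's probes also left its values unchanged. Counts of alternatives therefore include many that could not move a member's difference. The fit was tested on simulated data. Figures were drawn with matplotlib 3.10.9 in Python 3.11.15. No array was left out.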

Additional observations from a re-analysis of the deposited data

Results flagged for a closer look

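The effect of DEN 50 against PBS differed between weeks 18 and 12 in 4 genes by limma's test of the interaction, as the effect at week 18 minus that at week 12 on the log2 scale. Scd had -4.94 (adjusted p = 0.0035), Acly -2.16 (adjusted p = 0.007), Fads1 -1.98 (adjusted p = 0.011) and Fads2 -2.00 (adjusted p = 0.024). For Scd the effects were 1.87 at week 12 and -3.07 at week 18, for Acly 0.01 and -2.15, for Fads1 -0.10 and -2.07, and for Fads2 -0.14 and -2.14. DEN livers at week 18 had received vehicle injections and the PBS livers had not, and this cannot be told apart from time.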

How the results depend on the processing

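Counts of called lipogenic genes moved by over 1.5 times in these cases. DEN 50 against PBS at week 12 gave 2, but 1 with scaling on bright probes and 1 with a trended, robust spread, and 1 to 3 with an array left out. Erlotinib 0.5 against vehicle gave 1, but 0 with scaling to medians, on bright probes or with the compared arrays alone, 3 with array weights, and 0 to 2 with an array left out. Erlotinib 2 against vehicle gave 3, but 0 with scaling to medians. Erlotinib 0.5 against PBS gave 4, but 2 with scaling to medians. Erlotinib 2 against PBS gave 2, but 1 with the authors' normalized table, with scaling to medians or with a trended, robust spread, 4 with the stricter filter, 7 with the compared arrays alone, and 1 to 4 with an array left out. PBS at week 18 against week 12 gave 0, and 0 to 1 with an array left out. Vehicle at week 18 against DEN 50 at week 12 gave 4, but 2 with scaling on bright probes, 0 with the compared arrays alone, and 2 to 4 with an array left out. The interaction gave 4, but 2 with scaling to medians. The cause of these moves was not tested. With each of the 31 alternatives the 6 falls in vehicle livers and in DEN 100 against DEN 50 were called, and in DEN 100 against PBS those of all but Scd. No called gene changed sign in any alternative, among 3180 values on the same side of the threshold, 43 that gained a call, 50 that lost one and 51 uncalled ones that moved. Many alternatives, such as leaving out an array of a group not compared, could not change a difference.

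Scaling on bright probes moved the median of all features by -0.49 for DEN 50, -0.20 for DEN 100 and -0.34 for vehicle against PBS, by -0.41 and -0.27 for erlotinib 0.5 and 2 against PBS, by 0.29 between the DEN doses, 0.12 between the erlotinib doses, 0.19 between vehicle and DEN 50 at week 12 and 0.14 in the interaction. The share of calls that were higher was 52.9% for DEN 50 against PBS, 89.7% of 1377 calls with scaling to medians and 35% of 1312 on bright probes. For DEN 100 against PBS it was 53.9%, 67.9% and 49.9%, and for vehicle against PBS 52.1%, 79.5% of 1963 and 41.2%. In the same order it was 54.1%, 20% and 51.7% between the DEN doses, 51.8%, 84.2% and 36.2% for erlotinib 0.5 against PBS, 59.2%, 86.2% and 57.1% for erlotinib 2 against PBS, 47.6%, 64.8% and 61.7% for erlotinib 2 against vehicle, and 27.6%, 7.69% and 66.7% for vehicle against DEN 50 at week 12. The stricter filter dropped Elovl6 and Acaca. No paired analysis was possible because the labels share no replicate number between the groups compared.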
